A study of Homo sapiens with 6 samples.

Results

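The genes described here encode the machinery that makes microRNAs and silences mRNAs with them. They were taken by symbol from the table of expression values, and all 10 were found among its 25545 genes: DROSHA and DGCR8 of the Microprocessor, the exporter XPO5, the nuclease DICER1, the Argonautes AGO1, AGO2, AGO3 and AGO4, and the GW182 proteins TNRC6A and TNRC6B. Expression was measured by RNA-seq in BT-549, an established line of triple-negative breast cancer (TNBC) cells. A control siRNA (CsiRNA) was transfected for 3 libraries and an siRNA against the lncRNA NEAT1 (NEAT1siRNA) for the other 3, and RNA was taken at 48 h. NEAT1 scaffolds the nuclear bodies called paraspeckles, and the comparison asks which transcripts differ when it is silenced. The sample titles also carry the prefix tet-, for an inducible system, while the treatment given is siRNA transfection in both groups. Untransfected cells and a further siRNA against NEAT1 were not analysed here, so every library comes from cells that had received a synthetic small RNA of the kind that Argonaute proteins load.

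A primary microRNA transcript is cut in the nucleus by DROSHA, which works with the RNA-binding protein DGCR8, and the hairpin that is released leaves the nucleus on Exportin-5, the product of XPO5. DICER1 trims the hairpin to a duplex, 1 strand of which stays in an Argonaute protein as the guide. The loaded Argonaute binds a TNRC6 protein, which brings deadenylases and decapping factors to the target mRNA. The libraries were made from polyadenylated RNA, so they measure the mRNAs of this machinery and some primary transcripts, not mature microRNAs.

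Expression is given as TPM, the reads of a gene divided by the length of its transcript and scaled to a fixed total in each library. Differences are log2 fold changes of NEAT1siRNA against CsiRNA, computed on log2(TPM + 1), so they come out too small where TPM is low. Genes averaging 1 TPM or more were tested with limma, and those with an adjusted p (Benjamini-Hochberg) below 0.05 were called. Reads recovered from the deposited tables summed to between 15790380 and 20340540 per library. Targeting reduced NEAT1 in every library, from 13.4, 7.68 and 10.8 TPM with CsiRNA to 4.36, 2.96 and 2.73 TPM with NEAT1siRNA, which is 31.5% of the control mean. The mesenchymal gene VIM ran from 859 to 1112 TPM, ESR1 was listed at 0 in all 6 libraries, PGR reached at most 0.00676 TPM and ERBB2 ran from 5.76 to 6.36 TPM. Markers of leukocytes (PTPRC, at most 0.0580 TPM) and of endothelium (CDH5, listed at 0) were at or near 0.

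DGCR8, XPO5 and DICER1 were lower in NEAT1-silenced cells, and the other 7 genes were not called. The promoters of these 3 genes are shown because they are the members that fell together. Each line gives the 250 bases before the start site that RefSeq lists on GRCh38.p14, 5′ to 3′ on the strand of the gene, with CCAAT and its reverse complement ATTGG in capitals. The DGCR8 sequence is chr22:20079991-20080240 on the plus strand, that of XPO5 chr6:43576039-43576288 on the minus strand, and that of DICER1 chr14:95157530-95157779 on the minus strand, at 1 of 5 listed start sites.
DGCR8 promoter: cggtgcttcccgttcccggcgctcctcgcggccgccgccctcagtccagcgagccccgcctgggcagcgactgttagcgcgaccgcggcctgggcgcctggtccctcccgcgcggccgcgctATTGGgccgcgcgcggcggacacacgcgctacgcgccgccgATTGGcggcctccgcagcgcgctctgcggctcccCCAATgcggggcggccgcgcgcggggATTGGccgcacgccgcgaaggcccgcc
XPO5 promoter: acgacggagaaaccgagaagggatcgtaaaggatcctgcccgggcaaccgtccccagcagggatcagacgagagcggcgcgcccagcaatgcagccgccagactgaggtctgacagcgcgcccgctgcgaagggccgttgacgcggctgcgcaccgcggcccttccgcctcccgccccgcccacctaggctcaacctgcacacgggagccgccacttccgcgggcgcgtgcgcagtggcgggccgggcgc
DICER1 promoter: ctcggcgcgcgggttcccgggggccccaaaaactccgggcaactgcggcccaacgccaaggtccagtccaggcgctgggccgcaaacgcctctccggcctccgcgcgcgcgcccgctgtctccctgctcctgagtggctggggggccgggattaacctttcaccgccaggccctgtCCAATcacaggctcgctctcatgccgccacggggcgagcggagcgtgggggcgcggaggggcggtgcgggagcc
G and C made up 80% of the DGCR8 sequence, 72.4% of that of XPO5 and 74% of that of DICER1, where the median over 35116 RefSeq promoters of this length was 58%. High shares were not particular to these genes. In members not called the share was 80% for AGO3, 71.6% for AGO1 and TNRC6A, 66.4% for AGO4, 62% for DROSHA and 56.4% for TNRC6B. The CCAAT letters, a motif looked at after the sequences had been seen, occurred 4 times upstream of DGCR8, once upstream of DICER1 and 0 times upstream of XPO5. Of all promoters 32.0% held them at least once on either strand and 0.874% held at least 4. Among members not called, the DROSHA sequence held them 3 times and the TNRC6B sequence 5 times, the latter at a start site 133091 bases from that of the GENCODE canonical transcript. The E-box letters CACGTG, bound by MYC, and the CRE letters TGACGTCA were in 0 of the 9 members with an entry, against 6.34% and 1.65% of all promoters on either strand. AGO2 is named here without a sequence.

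DGCR8 also carries microRNA hairpins in its own mRNA, and cutting of such a hairpin by the Microprocessor is a known means by which the complex limits DGCR8. MIR3618 lies in exon 2 of DGCR8, in the 5′ UTR. Its mature microRNA, at chr22:20085797-20085818 on the plus strand of GRCh38.p14, is shown with the seed (bases 2 to 8) in capitals.
hsa-miR-3618: uGUCUACAuuaaugaaaagagc
MIR3173 lies in an intron of DICER1. The TPM table counts whole genes, so cut and uncut DGCR8 transcripts were not told apart.

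Of the Microprocessor genes, DGCR8 was called and DROSHA was not. DGCR8, the RNA-binding subunit (chr22:20080221-20111877, plus strand of GRCh38), stood at 7.09, 6.03 and 5.99 TPM in the control libraries and at 4.67, 4.99 and 3.90 TPM in the silenced ones, given here and later in the order of replicates 1, 2 and 3. All 3 NEAT1siRNA values lay below all 3 CsiRNA values. The mean fell from 6.37 ± 0.620 to 4.52 ± 0.559 TPM (SD, n = 3), or to 71.0% of control, with a log2 fold change of -0.42 (95% interval -0.63 to -0.21, limma adjusted p = 0.00613). Of the 10721 genes tested, 3.26% had a lower log2 fold change than DGCR8. DROSHA, the RNase III subunit (chr5:31400494-31532196, minus strand), had 44.7, 41.5 and 45.2 TPM in the CsiRNA libraries and 43.4, 43.1 and 38.6 TPM in the NEAT1siRNA libraries. These groups overlapped, with means of 43.8 ± 2.01 and 41.7 ± 2.67 TPM. Its log2 fold change was -0.07 (95% interval -0.25 to 0.12, limma adjusted p = 0.678), which leaves room for a fall of up to 0.25 on the log2 scale. The interval of DROSHA does not hold the estimate of DGCR8, but the intervals of these genes overlap.

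XPO5, which carries precursor hairpins out of the nucleus with RAN-GTP, lies at chr6:43522334-43576038 on the minus strand. Its values were 38.4, 35.1 and 33.5 TPM with CsiRNA and 28.4, 27.8 and 26.1 TPM with NEAT1siRNA. The groups were separated by more than the spread within either. The mean fell from 35.7 ± 2.52 to 27.4 ± 1.18 TPM (SD, n = 3), or to 76.9% of control, with a log2 fold change of -0.37 (95% interval -0.55 to -0.18, limma adjusted p = 0.00765). An exon of POLR1C on the opposite strand overlaps 348 bases of the XPO5 canonical transcript, 6.54% of it. For DGCR8, an lncRNA on the opposite strand overlaps 523 bases of the canonical transcript, 11.6% of it. Whether reads were counted by strand is not given in the sources used here.

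DICER1, the cytoplasmic RNase III that makes the duplex, lies at chr14:95086228-95158010 on the minus strand. CsiRNA replicate 1 was the highest at 12.9 TPM, followed by the other CsiRNA libraries at 10.4 and 10.3 TPM. The NEAT1siRNA libraries had 8.58, 9.56 and 7.70 TPM, all below the lowest control. The mean fell from 11.2 ± 1.47 to 8.61 ± 0.932 TPM (SD, n = 3), or to 77.2% of control, with a log2 fold change of -0.34 (95% interval -0.55 to -0.13, limma adjusted p = 0.0293).

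**Figure D1:**
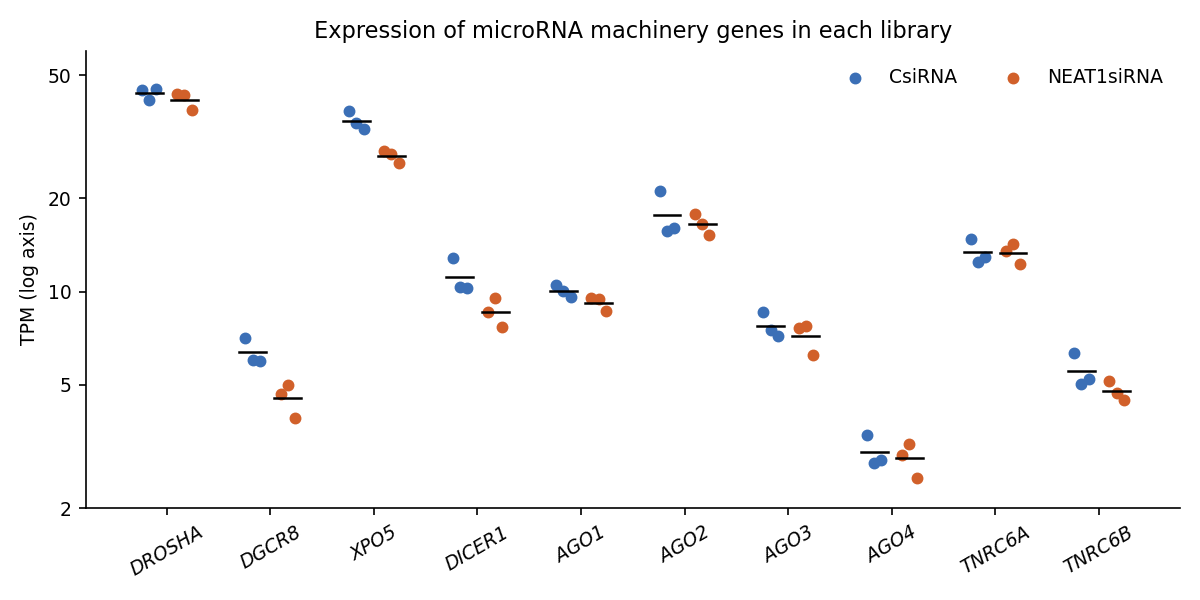
TPM of the 10 genes on a log axis, with each point a library (CsiRNA in blue, NEAT1siRNA in orange) and each bar the mean of 3. The NEAT1siRNA points lie below all CsiRNA points for DGCR8, XPO5, DICER1 and, by a smaller margin, AGO1, and the groups overlap for the other genes.

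Transcripts of the 4 Argonautes were not called changed. AGO2, the Argonaute that can itself slice a fully matched target and the most highly expressed of the family in these cells, had 21.2, 15.7 and 16.1 TPM with CsiRNA and 17.8, 16.5 and 15.3 TPM with NEAT1siRNA. CsiRNA replicate 1 stood above the other 5 libraries, and without it the log2 fold change of AGO2 was 0.05 in place of -0.08 (95% interval with all libraries -0.30 to 0.14, limma adjusted p = 0.669). AGO1 had 10.5, 10.1 and 9.59 TPM with CsiRNA and 9.54, 9.47 and 8.64 TPM with NEAT1siRNA. Its NEAT1siRNA values all lay below the controls, narrowly, and its log2 fold change was -0.11 (95% interval -0.30 to 0.08, limma adjusted p = 0.459). AGO3 had 8.58, 7.51 and 7.19 TPM against 7.62, 7.76 and 6.22 TPM, with a log2 fold change of -0.10 (95% interval -0.30 to 0.11). AGO4 was the lowest member, at 3.43, 2.80 and 2.87 TPM with CsiRNA and 2.97, 3.22 and 2.51 TPM with NEAT1siRNA, and its log2 fold change was -0.05 (95% interval -0.26 to 0.16). The groups overlapped for AGO3 and AGO4 (limma adjusted p of 0.585 and 0.802). AGO4, AGO1 and AGO3 stand in this order on the plus strand of chromosome 1, with 11917 bases between AGO4 and AGO1 and 185 bases between AGO1 and AGO3. The paralogues are similar in sequence, and how reads that match several of them were assigned is not given in the sources used here.

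The GW182 genes, whose products link Argonaute to the deadenylases, were not called either. TNRC6A had 14.8, 12.5 and 12.9 TPM with CsiRNA and 13.5, 14.3 and 12.3 TPM with NEAT1siRNA, and its means of 13.4 ± 1.23 and 13.4 ± 0.982 TPM gave a log2 fold change of -0.0012 (95% interval -0.20 to 0.20, limma adjusted p = 0.996). TNRC6B had 6.36, 5.02 and 5.22 TPM with CsiRNA and 5.17, 4.72 and 4.48 TPM with NEAT1siRNA. Its NEAT1siRNA replicate 1 lay between the controls, and its log2 fold change was -0.17 (95% interval -0.38 to 0.04, limma adjusted p = 0.284). The related TNRC6C stood at 0.93, 0.74 and 0.98 TPM with CsiRNA and 1.11, 0.81 and 0.85 TPM with NEAT1siRNA, under the minimum for testing.

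All 10 members passed the filter on low values, with a mean over 1 TPM in either group. Called lower were 3 of 10 members, where 8.98% of all genes tested were, and called higher were 0 of 10, where 4.99% of all genes were. In either direction 14.0% of all genes were called. The NEAT1siRNA values lay below all CsiRNA values in 4 of 10 members and in 19.3% of all genes. The log2 fold change was below 0 in 10 of 10 members and in 60.7% of all genes, and the median was -0.11 over the members and -0.04 over all genes. The 7 members not called ran from -0.17 to -0.0012. For AGO1, AGO2, AGO3, AGO4, DROSHA and TNRC6A the sign of the difference turned under at least 1 other scaling, correction or set of libraries.

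**Figure D2:**
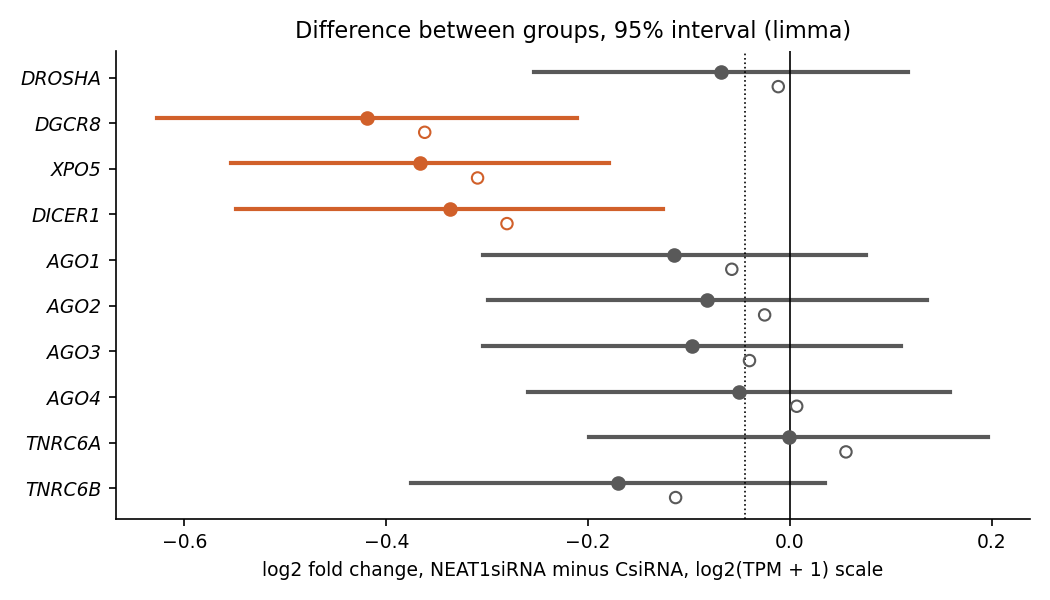
Log2 fold change of each member on the log2(TPM + 1) scale. Filled points with bars give limma's estimate and 95% interval, open points the estimate after each library was centred on its median, and orange marks an adjusted p under 0.05. DGCR8, XPO5 and DICER1 stand at -0.42, -0.37 and -0.34 with intervals below 0, centring moves every point toward higher values, and AGO4 and TNRC6A then lie above 0. The dotted line is the median of all genes tested, -0.04.

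The calls of DGCR8, XPO5 and DICER1 held under another scaling of the libraries, with log2 fold changes of -0.36, -0.31 and -0.28 after centring on the median (limma adjusted p of 0.00439, 0.00441 and 0.0175). They depended on single libraries. Against the CsiRNA mean, the median difference of the 10 members was 0.14 in CsiRNA replicate 1 and -0.22 in NEAT1siRNA replicate 3, where the medians of all genes were 0.07 and -0.11, so these libraries stood at the far ends of both. Without CsiRNA replicate 1 the adjusted p was 0.0545 for DGCR8, 0.0699 for XPO5 and 0.206 for DICER1 (limma), and without NEAT1siRNA replicate 3 it was 0.0607, 0.0531 and 0.171. With no filter on TPM it was 0.0991 for DGCR8 and 0.174 for DICER1, while XPO5 was called. With the same libraries left out and the rest centred on their medians, settings chosen after seeing the data, DGCR8 and XPO5 were called and DICER1 was not, with an adjusted p of 0.0953 and 0.0883. The deviation of genes from their group mean moved with GC content in the libraries, with Spearman rho across 10423 genes between -0.730 in NEAT1siRNA replicate 2 and 0.677 in NEAT1siRNA replicate 1, and with that trend removed the log2 fold changes were -0.38, -0.32 and -0.32.

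Ratios within a library do not depend on how the libraries are scaled. DGCR8 stood at 0.159, 0.146 and 0.133 times the TPM of DROSHA with CsiRNA and at 0.108, 0.116 and 0.101 times with NEAT1siRNA. The ratio of the Microprocessor transcripts thus fell from 0.146 ± 0.0130 to 0.108 ± 0.00737 (SD, n = 3) with no overlap, a log2 difference of -0.43. XPO5 relative to DROSHA was 0.816 ± 0.0655 with CsiRNA and 0.658 ± 0.0158 with NEAT1siRNA, DICER1 relative to DROSHA 0.255 ± 0.0306 and 0.206 ± 0.0135, and DICER1 relative to AGO2 0.634 ± 0.0264 and 0.522 ± 0.0510. TNRC6B relative to TNRC6A was 0.412 ± 0.0152 and 0.359 ± 0.0258. In each of these 5 the groups did not overlap, which gave p = 0.1 in an exact two-sided permutation test, the smallest p that 3 against 3 allows (0.12 adjusted over the 6 ratios). The ratio of AGO2 to AGO1, 1.75 ± 0.239 and 1.79 ± 0.0650, overlapped between groups (exact permutation p = 0.8). The ratios were chosen after the values of the genes had been seen and rest on the same values. They thus repeat the single-gene differences in a form free of scaling, though not of a GC or length trend. With that trend removed the log2 fold changes were -0.010 for TNRC6B and 0.056 for TNRC6A, in place of -0.17 and -0.0012. Those of DGCR8, XPO5, DICER1, DROSHA and AGO2 were then -0.38, -0.32, -0.32, -0.040 and 0.054.

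**Figure D3:**
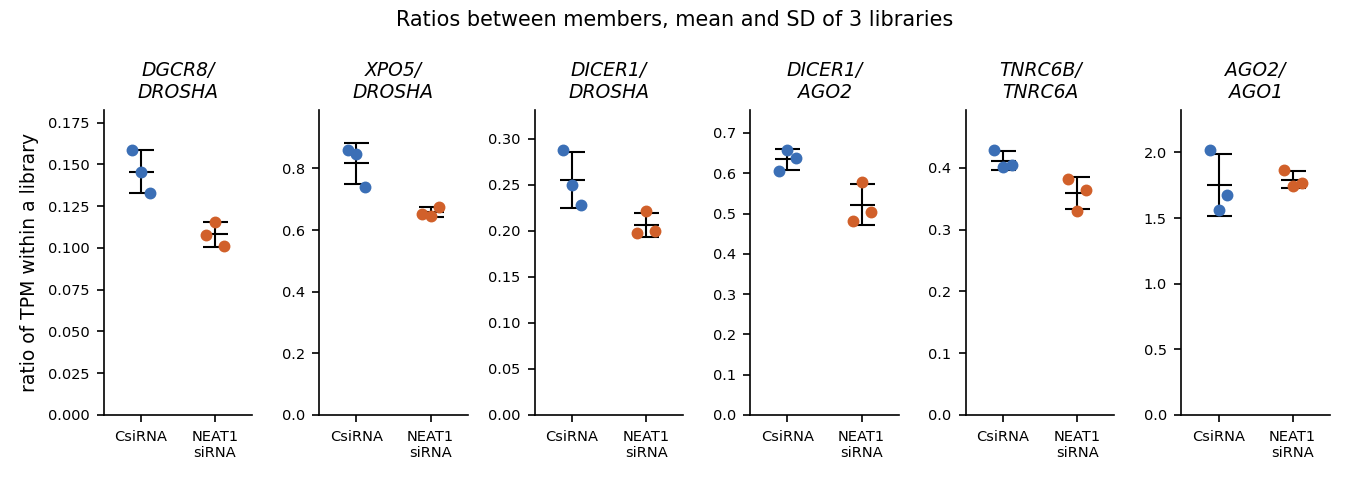
Ratio of the TPM of paired members within each library, with points for CsiRNA (blue) and NEAT1siRNA (orange) libraries and the mean and SD of 3 in black, on axes that start at 0. The groups separate in the first 5 panels, for example 0.146 against 0.108 for DGCR8 over DROSHA, and overlap for AGO2 over AGO1.

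In order of TPM over the 6 libraries, DROSHA was highest with a mean of 42.7, then XPO5 with 31.5, AGO2 with 17.1, TNRC6A with 13.4, DICER1 with 9.89, AGO1 with 9.64, AGO3 with 7.48, DGCR8 with 5.45, TNRC6B with 5.16 and AGO4 with 2.97. The ranges over libraries overlapped between neighbours for TNRC6A and DICER1, DICER1 and AGO1, AGO3 and DGCR8, and DGCR8 and TNRC6B, and the other neighbours were apart. The length implied by the deposited values was close to that of the GENCODE canonical transcript for most members, as for DICER1 (10849 and 10384 bases), but 7598 against 13712 bases for AGO1 and 3494 against 19660 bases for AGO3. The places of AGO1 and AGO3 in this order rest on those lengths. Mean recovered reads per library ran from 475 for AGO4 and 536 for DGCR8 to 5643 for AGO2. The genes nearest to DROSHA in their profile over the 6 libraries were LRRFIP1, ACTN4 and MCM3, with a root mean square difference of centred log2(TPM + 1) values of 0.014, 0.015 and 0.016.

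Other proteins bind the Microprocessor or help it choose its substrates, and 5 of the 20 tested from a list of 22 were called lower and 0 higher, beside 8.98% and 4.99% of all genes. Under quantile normalization, median centring, TPM without 4 short RNAs, voom and the GC correction 1 gene was called higher, the helicase gene DDX17 (log2 fold change 0.21 and limma adjusted p = 0.108 as tested here). The median log2 fold change of this list was -0.12. ADAR, which edits double-stranded RNA, fell from 63.5 ± 2.48 to 50.7 ± 2.02 TPM (log2 fold change -0.32, limma adjusted p = 0.0150). SFPQ, an RNA-binding protein that is also a component of paraspeckles, fell from 116 ± 5.03 to 93.5 ± 8.25 TPM (log2 fold change -0.31, limma adjusted p = 0.0205). METTL3, which methylates adenosines in mRNAs and primary microRNAs, was at -0.30 (limma adjusted p = 0.0492), and SAFB was called lower as well. NONO, the usual partner of SFPQ, had means of 204.5 and 204.2 TPM and was not called (limma adjusted p = 0.991). Over 19 alternative settings ADAR was called in 16, SFPQ in 14, SAFB in 13 and METTL3 in 6, and without CsiRNA replicate 1 or without NEAT1siRNA replicate 3 the list held 0 calls.

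Of the partners of export, dicing and loading, 19 of 21 were tested and 3 had an unadjusted limma p under 0.05 (2 lower and 1 higher). After adjustment 0 were called, where 14.0% of all genes were. This count depended on the processing, since genes of the list were called in 9 of 19 alternative settings. Median centring gave 1 gene, quantile normalization 2, TPM without the short RNAs 3, voom on recovered reads 3 and removal of the GC trend 4. In each of these, 1 call was higher, that of FKBP5 (log2 fold change 0.25 and limma adjusted p = 0.0916 as tested here). It was the only call with median centring. Leaving out CsiRNA replicate 3 gave 2 calls and leaving out NEAT1siRNA replicate 2 gave 3, all lower. The list includes TARBP2 and PRKRA, the double-stranded RNA-binding partners of DICER1, with log2 fold changes of -0.0038 and 0.08, and RAN at -0.17. Of the HSP90 and HSP70 chaperones that open Argonaute for loading, HSP90AA1 stood at -0.23 and HSPA8 at -0.22 (limma adjusted p of 0.0565 and 0.0677). These were called lower in 8 and 7 of the alternative settings. HSP90AB1 and HSPA4, of the same list, stood at -0.14 and -0.18 (limma adjusted p of 0.256 and 0.208) and were called in 0 and 2.

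Among the silencing effectors that act on the bound mRNA, 3 of 32 tested were called lower and 0 higher, with a median of -0.05. The share called lower, 9.38%, was close to the 8.98% of all genes. The deadenylase genes CNOT7 and CNOT8 stood at log2 fold changes of 0.27 and 0.22 (limma adjusted p of 0.0779 and 0.147). Both were called higher under quantile normalization, median centring, TPM without the short RNAs and voom. The same held with the GC and length trend removed and the replicate number as a block. CNOT7 was also called higher without NEAT1siRNA replicate 1. The largest difference in this list was in DCP2, the enzyme that removes the cap of mRNAs. DCP2 had 11.5, 9.68 and 9.04 TPM with CsiRNA and 4.85, 5.24 and 4.53 TPM with NEAT1siRNA, with every silenced library well below the lowest control. It fell to 48.4% of control (log2 fold change -0.91, limma adjusted p = 5.88e-07), was called in 19 of 19 alternative settings, and 0.252% of all genes had a lower log2 fold change. AJUBA, a LIM protein reported to bind Argonautes, fell from 15.7 ± 0.901 to 11.2 ± 0.460 TPM (limma adjusted p = 0.00140). EDC4, the scaffold on which DCP2 is activated, fell from 10.1 ± 0.793 to 7.65 ± 0.363 TPM (limma adjusted p = 0.0116). The CCR4-NOT scaffold CNOT1 and the exonuclease XRN1 were not called, at -0.23 and 0.10 (limma adjusted p of 0.116 and 0.571). Of 13 genes of microRNA tailing and turnover, the exoribonuclease PNPT1 alone was called, at 14.1 ± 1.40 and 10.6 ± 1.37 TPM (log2 fold change -0.38, limma adjusted p = 0.0127). That is 7.69% of the list, where 8.98% of all genes were called lower and 14.0% in either direction. EDC4 kept its call in 15 of the 19 settings and PNPT1 in 14, and neither was called without CsiRNA replicate 1 or without NEAT1siRNA replicate 3.

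Transcripts that carry microRNAs are the substrates of this machinery, and of a list of 25 such hosts 20 were in the table and 11 were tested. Called lower were 4 and higher 0, beside 8.98% and 4.99% of all genes, with a median of -0.24. However, 3 of the 11 passed the filter only through their CsiRNA values and had to differ, so these counts are a description only. MIR17HG, the host of the miR-17-92 cluster, had 2.64, 1.91 and 1.88 TPM with CsiRNA and 0.911, 1.02 and 0.817 TPM with NEAT1siRNA (log2 fold change -0.71, limma adjusted p = 5.47e-05). MIR155HG had 2.23, 1.81 and 2.47 TPM with CsiRNA and 0.799, 1.03 and 0.970 TPM with NEAT1siRNA (log2 fold change -0.71, limma adjusted p = 3.94e-05), from a mean of 43.2 recovered reads per library. For both hosts every NEAT1siRNA value lay below every control, and without the filter on low values both were called, with an adjusted p of 0.0309 and 0.0250 (limma). MIR503HG was called lower (limma adjusted p = 0.0138), and so was MIRLET7BHG (0.0271), whose groups overlapped. MIRLET7BHG, like MIR17HG and MIR155HG, averaged over 1 TPM only through its CsiRNA values. With no filter on TPM neither MIR503HG nor MIRLET7BHG was called (limma adjusted p of 0.176 and 0.215). MIR503HG was not called without CsiRNA replicate 3 or without NEAT1siRNA replicate 3. Among the fits that left a library out, MIRLET7BHG was called only without CsiRNA replicate 2 or without NEAT1siRNA replicate 1. Over the alternative settings MIR17HG and MIR155HG were called in 18 of 18, MIR503HG in 13 of 19 and MIRLET7BHG in 8 of 18. With quantile normalization the list held 2 calls, so MIR503HG and MIRLET7BHG were not called there. Main mature products of the 2 hosts that fell most are shown to let their seeds (capitals, bases 2 to 8) be compared, from RefSeq on the plus strand of chromosomes 13 and 21 of GRCh38.p14.
hsa-miR-17-5p: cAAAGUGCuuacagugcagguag
hsa-miR-20a-5p: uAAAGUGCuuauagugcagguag
hsa-miR-18a-5p: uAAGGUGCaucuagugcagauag
hsa-miR-19a-3p: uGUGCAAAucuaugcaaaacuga
hsa-miR-19b-3p: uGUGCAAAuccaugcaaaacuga
hsa-miR-92a-3p: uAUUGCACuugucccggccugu
hsa-miR-155-5p: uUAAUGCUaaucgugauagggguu
miR-17-5p and miR-20a-5p share the seed AAAGUGC, and miR-19a-3p and miR-19b-3p share GUGCAAA, so 1 host gives several microRNAs that can pair with the same seed sites. The host levels do not give the levels of these mature forms.

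**Figure D4:**
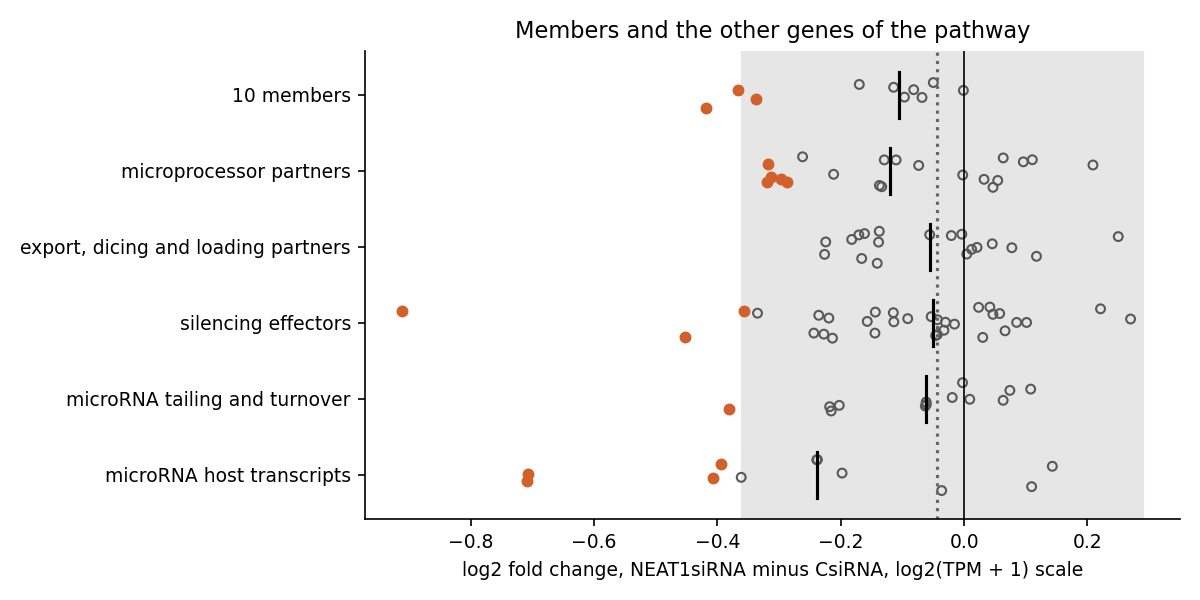
Log2 fold changes of the members and of each list, on the log2(TPM + 1) scale, with filled orange points for genes called, open points for the others, black bars for list medians, a grey band from the 5th to the 95th percentile of all genes tested (-0.36 to 0.29) and a dotted line at their median. The points called in this fit are all on the lower side, with DCP2 at -0.91 farthest out on this scale. As a percent of control, MIR17HG (42.7%) and MIR155HG (43.0%) stood lower than DCP2 (48.4%).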

How the data were processed

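Stranded mRNA libraries were sequenced from BT-549 cells cultured in triplicate with CsiRNA or NEAT1siRNA. Per the labels, the authors aligned reads with STAR to GRCh38 and used DESeq2. The authors deposited TPM per gene and library, and a table with the mean normalized count over the 6 libraries (a signal after division by size factors), used here, and their own log2 fold changes, test scores and p-values, which were not used. Whether separate libraries came from separate experiments is not stated beyond cultures in triplicate, so p-values measure the spread between these samples.

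Genes averaging 1 TPM or more were tested on log2(TPM + 1) in limma 3.58.1 (R 4.3.3; lmFit, then eBayes with a mean trend) over all 6 libraries, two-sided, with Benjamini-Hochberg adjustment over the 10721 genes tested. Reads were recovered by joining both deposited tables, with 99.9% of values within 0.05 of whole reads where the mean normalized count was below 5, but 29.4% where it was above 500, so that the reads of such genes are approximate. A set of 4 short RNAs (RN7SK, RN7SL1, RN7SL2, RPPH1) took 64.4% to 68.1% of the TPM of a library, but only 2.30% to 3.01% of its recovered reads. Coordinates, lengths and exons came from GENCODE on GRCh38, where 22278 symbols matched by current name and 779 by an older one. Alternatives were other pseudocounts, filters and scalings, voom on recovered reads, removal of a GC and length trend, the replicate number as a block, and leaving out each library. The fit was also run on simulated reads with known changes, a fixed spread between libraries and no GC trend. These libraries do have a GC trend, so that run does not vouch for the calls made here. Named were all members, NEAT1, TNRC6C, up to 4 called genes with the largest change per list, and the 3 nearest profiles to the highest member, and other list genes were named after their values had been seen. The result of 1 list gene is not reported here. The members and lists were chosen with earlier results of these data known. Python 3.11.15 was used for the rest.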

Additional observations from a re-analysis of the deposited data

How the results depend on the processing

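Over 19 alternative settings DGCR8 was called in 16, XPO5 in 17 and DICER1 in 14, each lower throughout, and the other 7 members in 0. Their log2 fold changes ran from -0.49 to -0.31, -0.41 to -0.30 and -0.41 to -0.22, with adjusted p from 0.000141 to 0.0991, 0.000396 to 0.0699 and 0.000956 to 0.206. With no filter on TPM 1 member (XPO5) was called, and with 1 library left out 0 to 3 were. The number of genes called was 505 with no filter, 2503 with voom on recovered reads, 2382 with the GC and length trend removed, 2652 with that trend removed and the replicate block, 719 at an adjusted p under 0.01, and 759 to 2083 with 1 library left out. The cause of these differences was not tested. The split was 535 higher and 963 lower as reported, 1082 and 1109 with quantile normalization, 1158 and 954 with median centring, 918 and 1174 without the 4 short RNAs, and 1244 and 1259 with voom. Scaling moved the median of all genes by at most 0.057 on the log2 scale.

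Among members not called, the sign of the log2 fold change turned in some settings. It was 0.0089 for AGO1, 0.054 for AGO2, 0.019 for AGO3 and 0.056 for TNRC6A with the GC and length trend removed, with or without the replicate block. TNRC6A was at 0.052 with quantile normalization, 0.056 with median centring, 0.030 without the short RNAs and 0.052 with voom, and AGO4 at 0.0069 with median centring. Median centring without CsiRNA replicate 1 gave 0.067 for AGO2, 0.037 for AGO4 and 0.085 for TNRC6A, and without NEAT1siRNA replicate 3 it gave 0.013 for AGO3, 0.045 for AGO4, 0.0056 for DROSHA and 0.074 for TNRC6A. With 1 library left out, AGO2 ran from -0.16 to 0.049, AGO4 from -0.11 to 0.024 and TNRC6A from -0.046 to 0.068. TNRC6B kept its sign over the 19 settings and ran from -0.23 to -0.010, the latter with the GC and length trend removed.

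Deviations of libraries with the same replicate number correlated at -0.030, 0.251 and -0.107, so no clear pairing by number was seen. The same deviations moved with GC content, so these correlations cannot tell whether the libraries were paired. The replicate block gave 1640 genes and the same number of members called, and not every library matched its own number best.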
